A study of Rattus norvegicus with 3 samples.

Results

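The liver of rats that had been given saline and then partial hepatectomy was set against the liver of healthy rats, gene by gene, in RNA sequencing counts. These are 2 of the 3 libraries of the study. All rats were adult. The healthy group was untreated, and the saline group received a 1 ml dose before about 2/3 of the liver was removed, with tissue taken 32 hours after surgery. The study's remaining group received etanercept, which binds the inflammatory cytokine TNF, at 9 mg/kg in 1 ml before the same operation, and its values are given here only as a reference. Each group's RNA was a pool from 3 rats. Strain and sex were not given in the sources used here. No sham-operated group was analysed here, so regrowth, surgery and the saline dose cannot be told apart. Every gene row of the count files was used, which made 26404 gene identifiers, and rows that name no gene were dropped.

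After partial hepatectomy the remaining hepatocytes, which rarely divide in the adult, leave quiescence, copy their DNA and divide until liver mass is restored. Cytokines such as TNF and interleukin-6 prime this response, and growth factors such as HGF and ligands of the EGF receptor drive it on. The liver also makes acute phase proteins after injury while it has to keep up its metabolic work. The deposited files identify genes by Ensembl number only. Of the 47357 entries of the gene reference used here, 0 carried an Ensembl number. None of the 26404 identifiers could thus be joined to a gene symbol here, which is a limit of that reference and not of the identifiers. The liver markers, the markers of other cell types and the pathway lists could therefore not be scored, and genes are given by identifier without a name or function.

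Each group is 1 library, so differences have no replicate check and no test was possible. A level is given in CPM, counts per 1000000 of the library size after scaling by TMM, a method that evens out the bulk of genes between libraries. Folds compare the scaled counts of both libraries, with 0.5 added to each count beforehand, and their 95% intervals are exact (Clopper-Pearson). The interval covers counting error only and not the spread between rats or preparations. In bulk tissue, fewer cells of a type and less RNA per cell cannot be told apart. The healthy library held 5993834 gene reads and the saline library 2645152, so 1 read stands for 0.186 CPM in the first and 0.309 CPM in the second. A count of 0 allows up to 3 counts, or 0.559 and 0.927 CPM.

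With TMM scaling, which evens out the bulk of genes, most genes lay within 1.5-fold between the libraries. The differences reached farther upward than downward. Of the 9755 genes with at least 5 CPM in the higher library, 60.6% lay within 1.5-fold. The counting interval excluded a ratio of 1 for 51.1% of the tested genes, and 1504 of these lay within 1.5-fold. At least 2-fold differences were found in 19.0%, with 909 genes (9.32%) higher and 942 (9.66%) lower in the saline library. This near balance rests on the TMM scaling, since total gene reads gave 1987 higher and 363 lower genes and a median log2 fold of 0.41. The central part of the distribution was narrow, with quartiles of the log2 fold of saline over healthy at -0.51 and 0.39 and a median of -0.07. The tails were unequal, since the 5th percentile stood at a log2 fold of -1.33 and the 95th at 1.56.

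**Figure D1:**
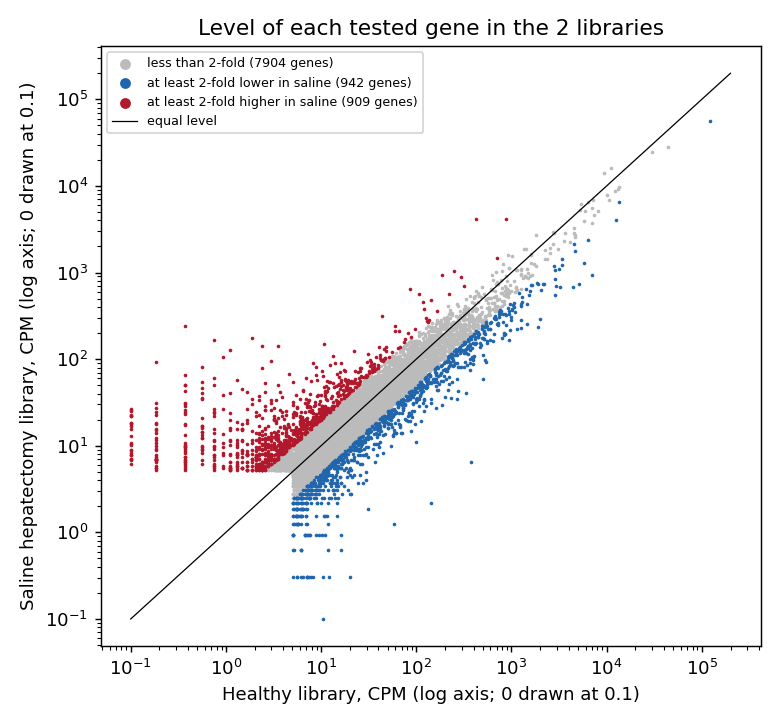
Level of each of the 9755 tested genes in the healthy library (horizontal) and the saline hepatectomy library (vertical), both in CPM on log axes with 0 drawn at 0.1. Red points are the 909 genes at least 2-fold higher in saline, blue points the 942 at least 2-fold lower; with TMM scaling the most abundant genes, at the upper right, lie mostly below the line of equal level.

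The excess of large increases was clearer when each gene was taken at the counting bound nearest to no change. Intervals lay wholly beyond 2-fold for 441 genes higher in saline (4.52% of those tested) and for 398 lower (4.08%). Beyond 4-fold there were 197 higher (2.02%) and 52 lower (0.533%). Beyond 8-fold the numbers were 96 (0.984%) and 5 (0.0513%), and beyond 16-fold 49 (0.502%) and 3 (0.0308%). A bound beyond 32-fold was reached by 16 genes upward (0.164%) and 1 downward (0.0103%), and one beyond 64-fold by 3 genes upward (0.0308%) and 0 downward. Fewer genes had the depth to reach a large bound downward than upward. With a saline count of 0, a bound beyond 16-fold lower was within reach of 5363 genes. With a healthy count of 0, a bound beyond 16-fold higher was within reach of 6974 genes. In the same order the numbers were 3372 and 4803 at 32-fold, and 1828 and 2716 at 64-fold. The part of depth in the excess of large increases was not tested. Scaling by total gene reads, which raises every log2 fold by 0.45, gave 828 higher and 165 lower genes beyond 2-fold, and 66 and 2 beyond 16-fold.

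**Figure D2:**
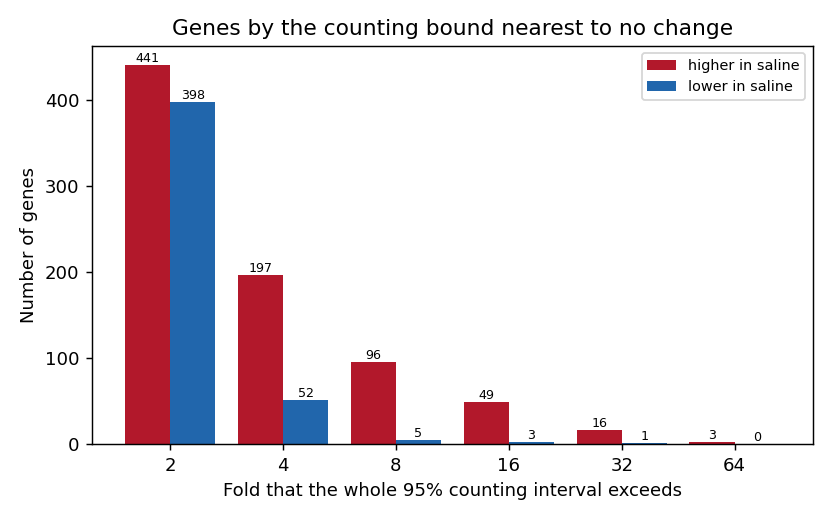
Number of genes (vertical) whose whole 95% counting interval exceeds a given fold (horizontal), for genes higher (red) and lower (blue) in the saline library. The bars are close at 2-fold, 441 and 398, and separate at 8-fold, 96 against 5.

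Single genes were ranked by that bound among the 5746 genes with at least 20 CPM in the higher library. The gene nearest above this limit stood at 15.1 CPM in healthy and 20.1 CPM in saline liver, with a ratio of 1.33 (0.946 to 1.87). The gene nearest below it stood at 19.9 and 17.6 CPM, a ratio of 0.888 (0.630 to 1.23). Both intervals include 1.

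The leading increase was that of ENSRNOG00000028896, with 2 counts in healthy, 781 in saline and 1309 in etanercept-treated liver. Its ratio of saline to healthy was 519 (179 to 5362). The gene went from 0.372 CPM, under the floor of 0.559 CPM, to 241 CPM, which is above the median of 181 CPM among the 51 genes that were at least 2-fold higher and reached 100 CPM in saline.

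The second was ENSRNOG00000024428, which had 1 count in healthy, 298 in saline and 165 in etanercept-treated liver. Its levels were 0.186, 92.1 and 49.7 CPM in that order. The ratio of saline to healthy was 330 (88.1 to 19603). The width of both intervals comes from the healthy side, where the next read more or less moves the ratio strongly; adding 5 rather than 0.5 to each count gave ratios of 186 for ENSRNOG00000028896 and 83.8 for ENSRNOG00000024428.

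ENSRNOG00000008050 led the decreases with 2033 counts in healthy, 21 in saline and 29 in etanercept-treated liver. It was 57.0-fold lower in saline than in healthy (38.0 to 94.4). ENSRNOG00000011250 followed with 765, 7 and 10 counts, or 142, 2.16 and 3.01 CPM. It was 61.5-fold lower in saline (31.8 to 164). The second of these had the larger fold and the wider interval, and the intervals overlap, so their order by fold is not settled at this depth. Both genes were still detected after hepatectomy.

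**Figure D3:**
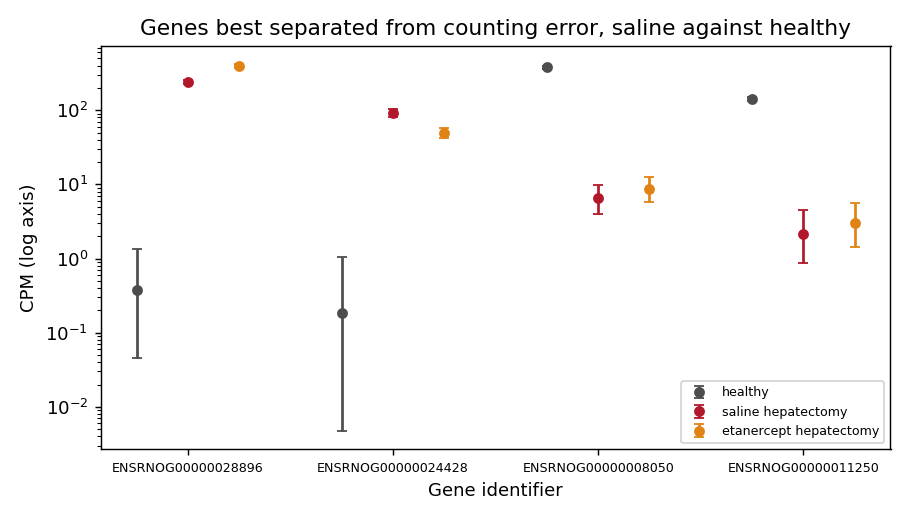
Level in CPM (vertical, log axis) of the 2 leading genes per direction (horizontal) in the healthy, saline and etanercept libraries, with exact Poisson 95% intervals as bars. The leading increases have healthy levels of 0.372 and 0.186 CPM, and the leading decreases have saline levels of 6.49 and 2.16 CPM.

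The genes ranked 3 to 15 in each direction are described by their levels, which also chose them. The 13 upward ones had between 0 and 2.42 CPM in the healthy library, with at most 3 counts in 8 of them and none in 3. They reached 25.3 to 174 CPM in the saline library, and their bounds ran from 33.2 to 86.2-fold. The 13 downward ones started from 30.9 to 6959 CPM in the healthy library, of which 5 were above 1000 CPM. They stood at 1.24 to 940 CPM in saline, and their bounds ran from 5.37 to 18.1-fold. In the etanercept library the upward genes stood between 12.0 and 265 CPM. The downward genes ranged there from 0 to 6092 CPM, and 1 of them stood above its healthy level there. The etanercept library was compared with the same healthy library, and these values are given side by side only.

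Genes without reads in one library were mostly at the edge of detection. At least 1 read was found in both libraries for 13625 genes. A further 1006 had reads in saline alone, of which 902 had at most 3 counts, and 2341 had reads in healthy alone, of which 2013 had at most 3. The larger number goes with the deeper healthy library. At 5 CPM or more there were 24 genes with reads in saline alone and 1 with reads in healthy alone. The highest of the 24 had 85 counts in the saline library (26.3 CPM). That is 47.0 times the healthy floor of 3 counts, and its counting bound is 37.4-fold higher. It stood at 34.3 CPM in the etanercept library. The gene with reads in healthy alone had 56 counts (10.4 CPM), which is 11.2 times the saline floor with a counting bound of 8.85-fold lower in saline, and 0 CPM in the etanercept library.

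With TMM scaling, higher genes were mostly of low level, and lower genes reached into the abundant transcripts. Of the 909 higher genes, 541 had 5 to 20 CPM in the saline library, 317 had 20 to 100, 47 had 100 to 1000 and 4 had over 1000. Of the 942 lower genes, the healthy library held 360 at 5 to 20 CPM, 273 at 20 to 100, 262 at 100 to 1000 and 47 over 1000. The last 2 numbers were 21.2% of the 1235 tested genes and 42.0% of the 112 at those healthy levels, against 9.66% of all tested genes. At the same healthy levels 17 and 0 genes were higher. Grouping by the healthy level itself favours lower values in saline. At least 20 CPM in the higher library was reached by 5746 of all 9755 tested genes. The same held for 368 of the 909 higher and 582 of the 942 lower genes. At this limit the lower genes were close to the share over all tested genes. The higher genes went from a median of 3.72 CPM in healthy to 15.5 CPM in saline, and the lower genes from 37.3 to 13.6 CPM. As shares of gene reads, which need no scaling factor, the higher genes took 1.01% of the healthy and 5.10% of the saline library. The lower genes took 32.5% and 17.0%. The same values chose these genes, so the direction of the shares follows from the choice and the sizes are a description.

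The 4 genes that were at least 2-fold higher and exceeded 1000 CPM in saline had counts large enough for narrow intervals. The first stood at 871 CPM in healthy and 4140 CPM in saline, a ratio of 4.75 (4.60 to 4.91), and at 1541 CPM in the etanercept library. The second stood at 426 and 4119 CPM, a ratio of 9.68 (9.26 to 10.1), and at 2237 CPM with etanercept. The others had ratios of 2.10 (2.01 to 2.19) and 4.09 (3.84 to 4.37), with etanercept levels of 449 and 329 CPM. In each of the 4 the etanercept level lay below the saline level. These 4 were chosen by a high saline level, and that choice favours lower values in any other library. Of the 50 leading increases by counting bound, with at least 20 CPM in the higher library, 18 had an etanercept level above their saline level. The etanercept library had 77.4% of its uniquely aligned reads in no gene, and the part of this in its levels was not tested.

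Among the 47 lower genes above 1000 CPM in healthy, the largest fold was that of a gene at 1912 CPM in healthy and 234 CPM in saline, which is 8.16-fold lower (7.58 to 8.80). The next one took more reads, with 6959 CPM in healthy and 940 CPM in saline, and was 7.40-fold lower (7.13 to 7.68). In the etanercept library the first stood at 284 CPM and the next at 1407 CPM. The others of the leading 5 were 6.85-fold, 6.76-fold and 6.47-fold lower. They stood at 740, 294 and 685 CPM in saline and at 1246, 129 and 296 CPM in the etanercept library. The folds of the leading 5 are well under the 57.0-fold of ENSRNOG00000008050, which had 378 CPM in healthy.

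Grouping 9234 of the tested genes by their mean CPM in the healthy and saline libraries gave a steady order. The other 521, with a mean under 5 CPM, are in no class; 182 of them were at least 2-fold higher and 123 lower. The median log2 fold of saline over healthy was -0.63 for the 97 genes of at least 1000 CPM and -0.35 for the 1180 genes of 100 to 1000 CPM. It was -0.08 for the 3899 genes of 20 to 100 CPM and 0.04 for the 4058 genes of 5 to 20 CPM. Of the most abundant class 32.0% were at least 2-fold lower and 3.09% higher, and of the least abundant class 7.79% were lower and 12.4% higher. With total-read scaling these shares were 17.5% lower and 8.25% higher in the most abundant class, and 2.86% lower and 24.1% higher in the least abundant. Counting error differed widely between the classes. The median half-width of the interval was 0.05 log2 units in the highest class and 0.67 in the lowest, so a given fold is measured less exactly there. Intervals lay wholly beyond 2-fold for 34.0% of the highest class and 7.20% of the lowest. With total-read scaling the medians were -0.18, 0.10, 0.37 and 0.49 from the highest class to the lowest. The sign of the middle classes therefore depends on the scaling. Total-read scaling adds the same 0.45 to every log2 fold, so it could not change the order of the classes.

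**Figure D4:**
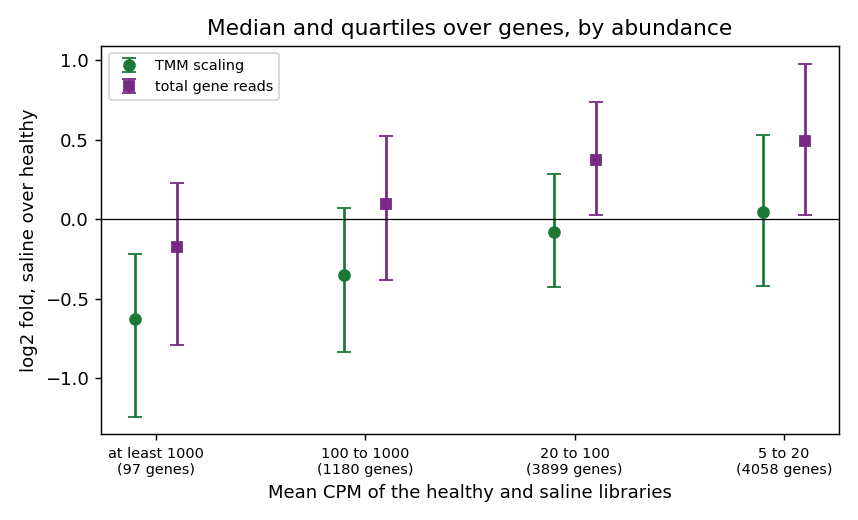
Median log2 fold of saline over healthy (points) with quartiles over genes (bars) in 4 classes of mean CPM, for TMM scaling (circles) and total gene reads (squares). The medians climb from -0.63 to 0.04 with TMM and from -0.18 to 0.49 with total reads. Total reads add the same 0.45 to every log2 fold, so the shared order follows from the method.

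Gene reads were less concentrated in the saline than in the healthy library. Each library's 100 most abundant genes took 49.9% of gene reads in healthy (95% exact interval 49.8 to 49.9) and 43.9% in saline (43.8 to 43.9), and 77 genes were on both lists. The 1000 most abundant took 76.6% (76.5 to 76.6) and 69.6% (69.5 to 69.6), with 811 on both. The etanercept library, also from hepatectomy, stood at 50.5% for its own 100 most abundant genes and 75.7% for its 1000. At these 2 list sizes it was nearer to healthy than to saline. Its own 10 took 27.5%, above both healthy (25.4%) and saline (22.2%). Its single most abundant gene took 6.47%, nearer to saline (6.92%) than to healthy. These shares measure concentration only and not which genes carried it. In that library 77.4% of uniquely aligned reads fell in no gene, and the part of this in its shares was not tested. Summed over the genes whose share was smaller in saline than in healthy, the loss came to 19.7 percentage points of gene reads. Of the loss, 50% came from 25 genes, and the largest part, a change of -4.10 points, from the most abundant gene of the healthy library. Of the gain, 50% was spread over 287 genes, with at most 0.948 points for 1 gene.

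**Figure D5:**
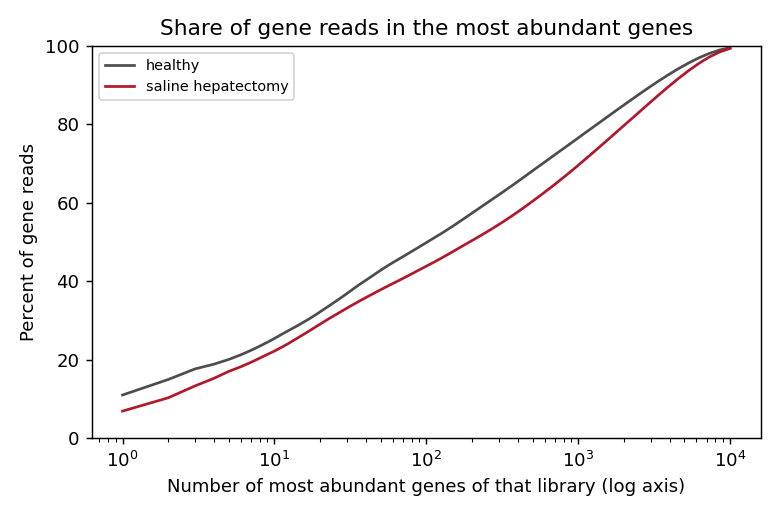
Percent of gene reads (vertical) taken by the most abundant genes of each library, as their number grows (horizontal, log axis). The saline curve runs below the healthy curve, at 43.9% against 49.9% for 100 genes.

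The leading transcripts kept much of their order. Of the 10 most abundant genes of the healthy library, 8 were among the 10 of the saline library, and the first 3 held the same ranks. The first held 6.92% of the saline reads. The second held 3.96% in healthy and 3.40% in saline, and the third 2.69% and 3.02%. The third was therefore higher in saline as a share of gene reads and lower by TMM, with a ratio of 0.822. The gene ranked 7 in healthy moved farthest in rank among these 10, to rank 22 with 0.489% of reads against 1.13%, and it ranked 124 in the etanercept library. The gene ranked 9 in healthy moved up to rank 4, from 1.00% to 1.95%, and the gene ranked 12 moved up to rank 5, from 0.841% to 1.74%. By TMM these 2 genes were 1.43-fold and 1.52-fold higher, under the 2-fold limit.

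The scaling factors changed how many genes were counted in each direction. Under TMM over 3 libraries, TMM over the healthy and saline libraries, DESeq2 size factors, upper-quartile factors and total gene reads, the same 900 genes were at least 2-fold higher in all 5, and the same 363 were lower. At least 4-fold differences, found with TMM in 338 higher (3.46%) and 153 lower (1.57%) of the tested genes, held in all 5 for 337 higher and 71 lower genes. The scalings differ by a constant shift of every log2 fold, so these counts are not separate support. The 363 and 71 lower genes equal the numbers under total gene reads alone. Higher genes made up 49.1% of those past 2-fold with TMM over 3 libraries, 53.2% with DESeq2 size factors and 84.6% with total gene reads.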

How the data were processed

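Liver RNA of 3 groups of adult rats was sequenced on an Ion Torrent instrument after removal of ribosomal RNA, per the labels' protocols and the series description. The authors' deposited files hold raw read counts per Ensembl gene, not normalized. The submitters' processing notes name TopHat2 2.0.13 and HTSeq 0.6.1. The sources used here give no genome build, annotation or strand setting. Reads of overlapping or antisense genes may therefore be lost or counted for the wrong gene. Rows that name no gene held 22.5% of uniquely aligned reads in saline and 20.6% in healthy and stayed out of library sizes.

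Counts were scaled with TMM over the 3 libraries (edgeR 4.0.16, R 4.3.3), with factors of 0.896 for healthy and 1.22 for saline. Intervals came from scipy 1.17.1 in Python 3.11.15, and DESeq2 1.42.0 gave alternative size factors. Calls needed a fold of 2 and 5 CPM in the higher library. The 2 identifiers named per direction are those with at least 20 CPM and the interval bound farthest from no change. Other genes, given without identifiers, were picked after their values were seen, by level or rank. The comparison and its 32 gene lists, none of which could be scored, were chosen with earlier results of these data known.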

Additional observations from a re-analysis of the deposited data

Results flagged for a closer look

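Reads outside single genes were above the healthy level in the saline library. Of the uniquely aligned reads in saline, 21.7% were in no gene (exact 95% interval 21.6 to 21.7) against 19.9% in healthy (19.9 to 19.9). Reads in more than 1 gene made up 0.871% (0.861 to 0.881) against 0.729% (0.723 to 0.735). Entries for reads aligned to several places numbered 4.14 per uniquely aligned read in saline, 3.17 in healthy and 2.10 in the etanercept library. One read can give several such entries. With 1 library per group these differences were not tested.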

How the results depend on the processing

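No paired analysis was possible because each group is 1 library. Leaving out a replicate was not possible either, and gene lists were not run for want of symbols. For 909 higher and 942 lower genes, total-read scaling gave 1987 and 363. A minimum of 1 CPM gave 1562 and 1510, 20 CPM gave 368 and 582, and no minimum gave 2701 and 2426. A fold of 1.5 gave 1747 and 2101, a fold of 4 gave 338 and 153, and intervals wholly beyond 2-fold gave 441 and 398. The other scalings and a pseudocount of 5 stayed within 1.5 times. Median log2 folds of the abundance classes, from the highest to the lowest, were -0.18, 0.10, 0.37 and 0.49 with total-read scaling, which turns the sign of the 2 middle classes. They were -0.78, -0.45, -0.13 and 0.0077 with classes from the healthy library alone. With the most abundant gene removed, the 100 most abundant of the others took 43.8% of the remaining gene reads in healthy and 39.8% in saline. The folds of the 4 named genes kept their direction in all alternatives run.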

Other observations

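Levels in the etanercept library are given for genes grouped by their saline over healthy fold. The 909 genes higher in saline had a median of 3.72 CPM in healthy, 15.5 CPM in saline and 14.2 CPM in the etanercept library. The 338 genes at least 4-fold higher had medians of 1.30, 15.5 and 16.3 CPM. The 942 lower genes had medians of 37.3, 13.6 and 17.2 CPM, and the 153 genes at least 4-fold lower had 20.7, 3.71 and 8.73 CPM. The 7904 genes not called had medians of 24.0, 23.8 and 23.5 CPM. In the etanercept library 77.4% of uniquely aligned reads fell in no gene, and the part of this in its levels was not tested.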
